A study of Mus musculus with 48 samples.

Results

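The early response of cells carrying wild-type C/EBPα-ER was taken from the 3 arrays at 0 h and the 3 arrays at 6 h after 4-hydroxytamoxifen (4-HT), 6 of the 48 arrays of the study, chosen by their labels. The cells were mouse 32D-BCR/ABL cells, a myeloid progenitor line that expresses the BCR/ABL oncoprotein, and all groups share this background. They had been transduced with the MigRI retroviral vector carrying a fusion of C/EBPα and the estrogen receptor (WT line). The same line without a fusion insert, transduced with the empty MigRI vector, was sampled on 3 arrays at 0 h and 3 at 6 h after 4-HT and served only to mark changes that also occur without the fusion (vector line). RNA was hybridised to Affymetrix MOE430_2 arrays. Each construct is represented by 1 line, a culture kept for 6 h without 4-HT is not among the samples used, and the labels speak both of triplicates and of separate experiments. All p-values rest on the spread between arrays within groups, pooled over the 16 groups of all 48 arrays. As each construct is 1 line, that spread may be technical.

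C/EBPα is a basic leucine zipper transcription factor that is needed for granulocyte differentiation. It is known to slow the cell cycle and to activate granule and receptor genes of granulocytes, while BCR/ABL signalling is known to lower its translation. The receptor part, which binds the hormone, keeps the protein inactive until 4-HT binds, so the hours after 4-HT follow the onset of its activity. In vector cells 4-HT has no fusion to act on.

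The Esr1 probe set, for the estrogen receptor gene, had signals of 2607, 2589 and 2228 in WT cells at 0 h and 2378, 2241 and 2484 at 6 h. In vector cells it lay between 12 and 25 on all 6 arrays, as the labels of both lines say. A second Esr1 probe set went from a mean of 95.3 to 42 in WT cells and was called lower in limma (-1.12 ± 0.13). The probe sets of Bcr and Abl1 gave 124 to 155 and 124 to 186 in WT cells, with no call in either line. Kit, a receptor of early progenitors, lay at 2 to 26 in WT cells, near the floor of the arrays, while the progenitor factors Myb and Gata2 were above 1000. Of the marker lists of other cell types, lymphoid genes were low: the 7 tested members summed to 115 to 215 at 0 h and 64 to 169 at 6 h, and none was called. The 13 tested erythroid and megakaryocyte genes summed to 1857 to 2188 at 0 h and 1342 to 1467 at 6 h in WT cells. Of them 1 was called higher (7.7%) and 4 lower (30.8%). In vector cells the 13 summed to 1832 to 2104 and 1832 to 1913. The 9 tested mast cell, basophil and eosinophil genes summed to 2018 to 2313 and 1914 to 1978 in WT cells, with 1 higher (11.1%) and 2 lower (22.2%). The 11 fibroblast and stromal genes summed to 5740 to 6632 and 5870 to 6623, with 2 higher (18.2%) and 0 lower. Over all genes tested, 13.5% were called higher and 19.0% lower in WT cells. The part of these lists in the results was not tested, and in such bulk RNA fewer cells of a type and less RNA per cell cannot be told apart. On the 12 arrays the median signal was 12 to 17, 0.602% to 2.29% of probe sets were listed at 0, and the 3' to 5' ratio of the control probe sets was 0.806 to 0.880 for Gapdh and 1.19 to 1.48 for actin. The highest median signal and the highest actin ratio of the 12 were those of WT 6 h replicate 1. The WT arrays correlated at 0.987 to 0.990 within 0 h, at 0.982 to 0.991 within 6 h and at 0.928 to 0.932 between the times, over the 11686 probe sets with a mean signal of 100 or more in a group.

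Values below are MAS5 signals, and changes are differences of mean log2(signal + 3) between 6 h and 0 h, with the standard error (SE) of the model and n = 3 arrays per group. A change was called at an adjusted p under 0.05 in limma. By 6 h, 3081 of 27167 tested probe sets had risen in WT cells (11.3%) and 4018 had fallen (14.8%), of which 443 and 924 changed 2-fold or more. With 1 probe set per gene, 1723 of 12800 genes rose (13.5%) and 2428 fell (19.0%). In vector cells, which carry no fusion, 1826 probe sets rose (6.72%) and 2396 fell (8.82%), or 1073 genes (8.38%) and 1536 genes (12.0%). The difference between both changes, tested in the same model, was above 0 for 688 probe sets (2.53%) and below 0 for 607 (2.23%), or for 418 genes (3.27%) and 380 genes (2.97%). With no test, the WT arrays at 6 h lay all above those at 0 h for 3999 probe sets (14.7%) and 2178 genes (17.0%), and all below for 5308 (19.5%) and 3013 (23.5%).

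Of the genes that rose in WT cells, 324 rose by more than in vector cells by the test of the difference, 788 were also called higher in vector cells with no call on the difference, and 611 fell in neither class. Of the genes that fell, 359 fell by more than in vector cells, 1006 were shared with vector cells, 10 fell by less than in vector cells and 1053 fell in none of these classes. The shared class thus held a larger number of genes than the class past vector, in both directions. A call in the same direction in vector cells was made for 48.2% of the WT rises and 45.8% of the WT falls, and a WT call for 77.5% of the vector rises and 72.4% of the vector falls. The centring of the arrays moves these divisions: with each array centred on its median, the difference passed for 370 probe sets higher and 95 lower, 79.6% higher against 53.1% without it, and vector calls were 19.2% higher against 43.2%. In that setting the median difference between both lines over all probe sets went from -0.04 to 0.11, and WT calls were 51.6% higher against 43.4%. It left 1211 genes higher and 1258 lower in WT cells (9.5% and 9.8%), and the list counts it moved most are given with each list. Before any centring, the mean signal after trimming both tails was 99.5 to 99.7 on the 12 arrays. Quantile normalization, another scaling, left 1936 genes higher and 2311 lower in WT cells. The difference then passed for 756 probe sets higher and 606 lower.

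**Figure D1:**
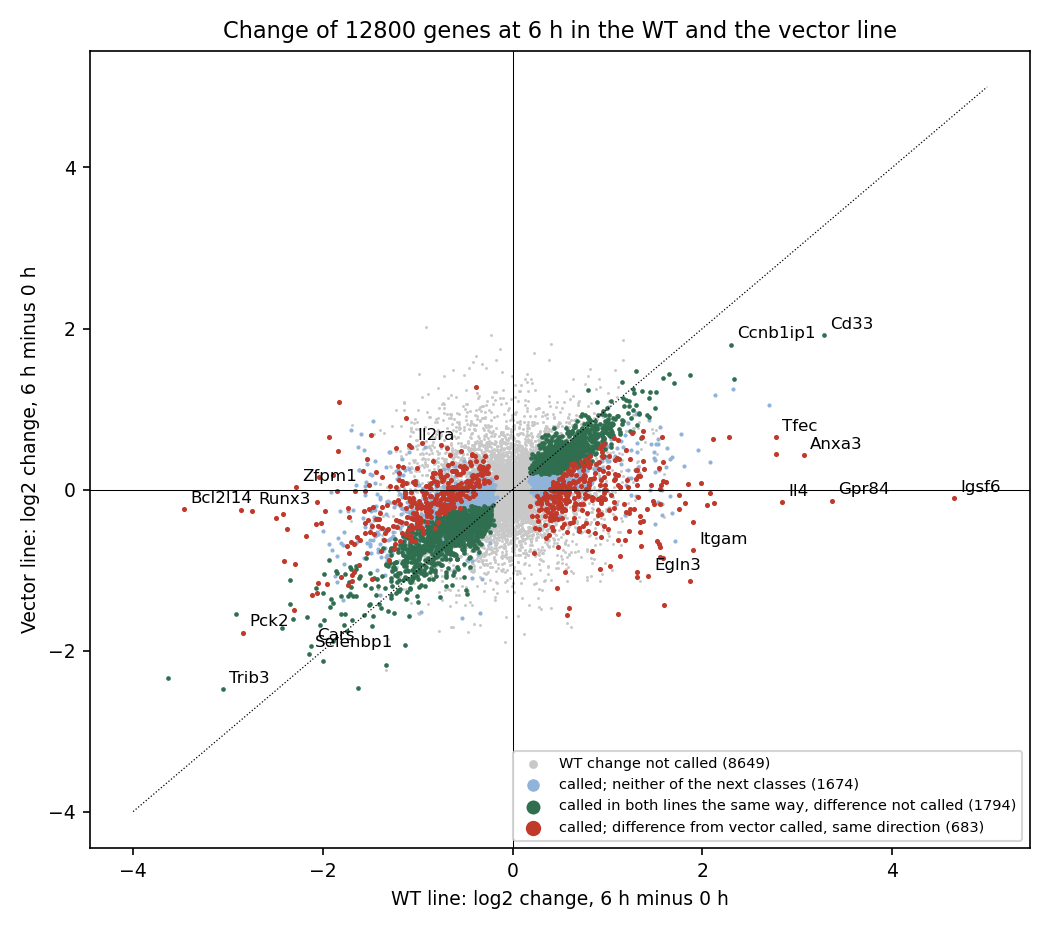
Log2 change from 0 h to 6 h of 12800 genes in the WT line (horizontal axis) and in the vector line (vertical axis), 1 point per gene, with the dotted line where both are equal. Red genes (683) were called in WT cells, with a difference from vector cells called in the same direction. Green genes (1794) were called the same way in both lines, with no call on the difference. The 17 named genes include Igsf6 and Gpr84 at the far right and Trib3 and Cars near the dotted line.

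Among the largest rises in WT cells was that of Igsf6, an immunoglobulin superfamily receptor of myeloid cells. Its signals were 1, 2 and 1 at 0 h and 127, 93 and 98 at 6 h, against 1 to 2 on all vector arrays, so the groups of WT arrays did not overlap and the 0 h arrays were at the floor. Its log2 change was 4.65 ± 0.35 (SE; adjusted p = 4.08e-14). Its rank depends on the added 3: with 12 added, Igsf6 changed by 3.14 and Gpr84 by 3.21. Gpr84, a receptor for medium-chain fatty acids on phagocytes, went from 66, 72 and 66 to 755, 714 and 722, a change of 3.37 ± 0.13. In vector cells it stayed between 58 and 77 at both times. Anxa3, an annexin abundant in neutrophils, rose from 183, 196 and 209 to 2005, 1525 and 1518 (3.07 ± 0.19), and vector cells had 7 to 24, so that WT cells already lay above vector cells at 0 h.

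Other large rises that passed the difference from vector cells were of mixed kinds. Il4, a cytokine, rose from 87, 74 and 83 to 684, 601 and 524 (2.84 ± 0.26). Tfec, a basic helix-loop-helix factor of macrophages, rose from 193, 189 and 207 to 1319, 1391 and 1366 (2.77 ± 0.12), and by 0.65 in vector cells. Hp, which encodes haptoglobin, a haemoglobin-binding granule protein, rose from 2, 6 and 8 to 57, 56 and 42 (2.78 ± 0.28), near the floor at 0 h. Irak3, a brake on Toll-like receptor signalling, rose from 119, 145 and 138 to 556, 597 and 537 (2.05 ± 0.21), and Alas1, the first enzyme of haem synthesis in most tissues, from 132, 145 and 148 to 670, 544 and 613 (2.08 ± 0.13). The call on that difference was lost for Hp without replicate 1 of every group (1.71). Tnfrsf14, a TNF receptor family member, rose by 1.99 ± 0.41, but its difference of 1.91 from vector cells was not called when any of 9 single arrays was left out, at 1.53 to 2.04, and was 0.99 without replicate 2 of every group.

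Other large rises were also seen in vector cells or not told apart from them. Cd33, a sialic-acid-binding lectin of myeloid cells, went from 16, 8 and 12 to 134, 162 and 125 in WT cells (3.28 ± 0.31) and rose by 1.92 in vector cells. Ccnb1ip1 rose by 2.30 in WT and 1.80 in vector cells, and Pram1, an adaptor of myeloid cells, by 2.33 and 1.38. Ccl3, a chemokine, rose by 2.70 ± 0.50 from signals of 1 to 22, with a difference from vector cells that was not called (adjusted p = 0.238). Clec4d and BC035044 rose in both lines, by 2.28 and 2.11 in WT cells against 0.65 and 0.62 in vector cells, and their differences passed.

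The largest falls were of mixed kinds. Bcl2l14, a member of the BCL2 family, fell from 190, 143 and 116 to 9, 18 and 7 (-3.46 ± 0.31), while vector cells kept 119 to 168 at both times. Runx3, a transcription factor of the RUNX family, fell from 328, 254 and 266 to 36, 50 and 34 (-2.74 ± 0.20) and lay at 244 to 342 in vector cells. Zfpm1, which encodes the GATA cofactor FOG1, fell from 650, 602 and 592 to 105, 134 and 136 (-2.28 ± 0.10), with 759 to 854 in vector cells at 6 h. In all of these the WT arrays at 6 h lay below every other array of the 12. Capn5 (-2.41), Pdzk1ip1 (-2.29) and Pck2, a mitochondrial gluconeogenic enzyme (-2.84), fell in both lines but by more in WT cells. Fhod1 (-2.50), Zfp385a (-2.38) and Pik3ip1, an inhibitor of PI3 kinase (-2.30), likewise passed the difference, at -2.14, -1.89 and -0.81. For Fhod1 the call was lost without WT 6 h replicate 1 (-1.51), without replicate 1 or 2 of every group (-1.32 and -2.26) and with median centring (-1.99). For Pik3ip1 it was lost without vector 6 h replicate 2 (-0.54) and without replicate 1, 2 or 3 of every group (-0.93, -0.61 and -0.9). The Pik3ip1 call was also lost with median centring (-0.66) and with only the arrays compared in the fit (-0.81). For Zfp385a it was lost without replicate 1 or 2 of every group (-1.42 and -1.93).

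Other large falls were shared with vector cells. Trib3, a stress-induced pseudokinase, fell from 738, 736 and 676 to 99, 75 and 78 in WT cells (-3.06 ± 0.15) and fell by 2.48 in vector cells. Col9a3 fell in WT cells to signals of 3 to 5 (-3.63) and also in vector cells (-2.34). Pgf, a growth factor of the VEGF family (-2.91), Ndrg4 (-2.34), Selenbp1 (-2.15) and Cars, a tRNA synthetase (-2.12), also fell in both lines without a call on the difference.

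The signal plot by array shows 12 genes of the groups described here and next.

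**Figure D2:**
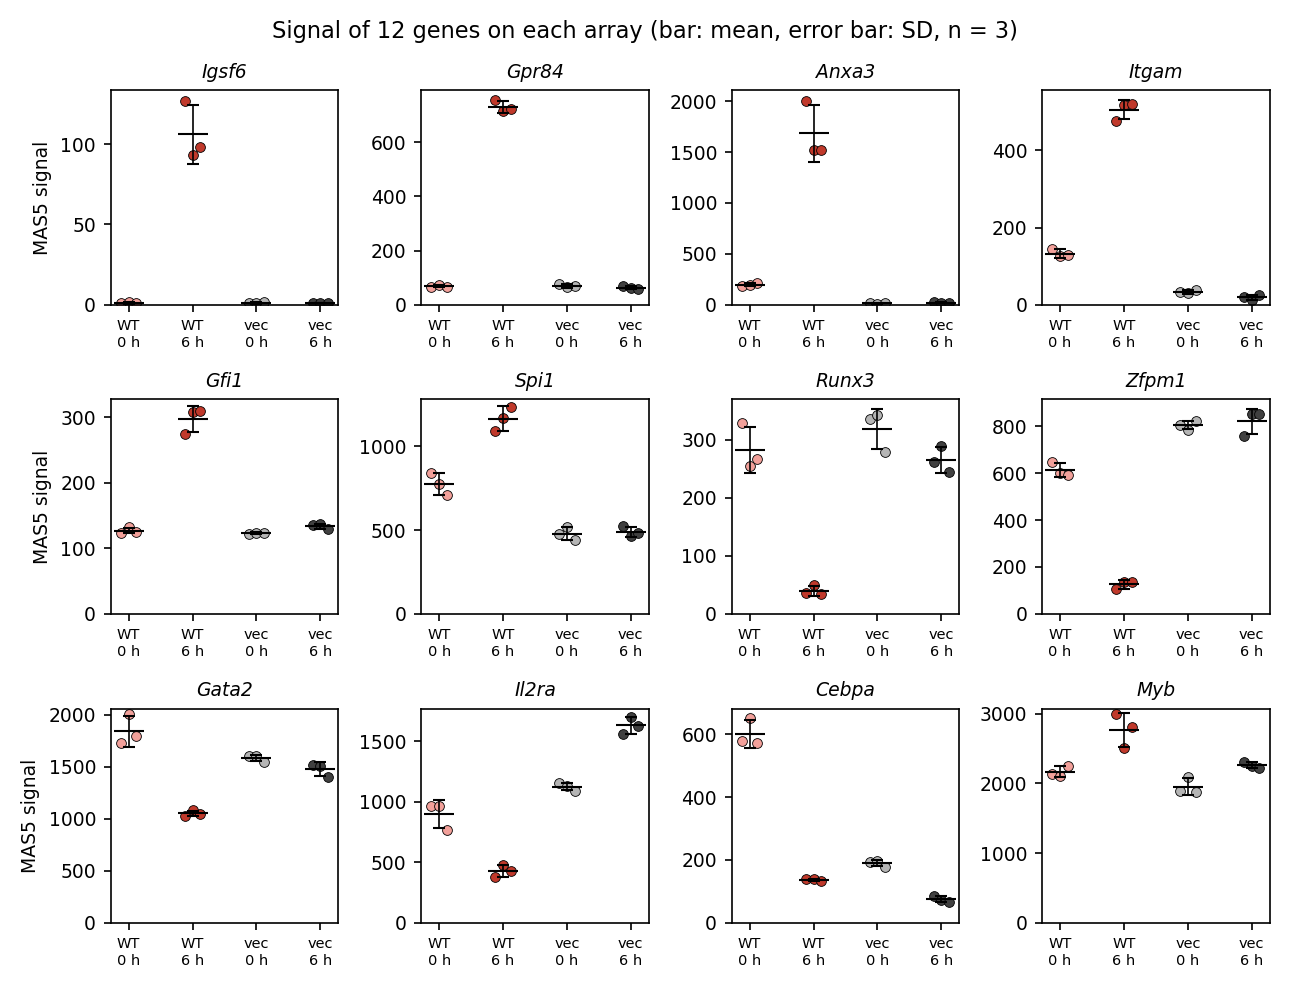
MAS5 signal (vertical axis, linear from 0, a scale of its own for each gene) of 12 genes on the 3 arrays of each group, with the mean and SD. Igsf6, Gpr84, Anxa3, Itgam, Gfi1 and Spi1 are highest in WT cells at 6 h, Runx3, Zfpm1, Gata2 and Il2ra lowest there, and Cebpa fell in both lines.

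Among 22 tested myeloid transcription factors, 5 rose (22.7%) and 7 fell (31.8%), where 13.5% and 19.0% of all 12800 genes did. Their median change was -0.07 against -0.06 over all genes. All 5 rises were past vector cells. Besides Tfec they were Gfi1, a repressor of the granulocyte lineage, from 124, 132 and 125 to 274, 308 and 310 (1.21 ± 0.10), and Spi1, which encodes PU.1, from 843, 773 and 708 to 1089, 1169 and 1237 (0.59 ± 0.10). The others were Nfil3, from 271, 226 and 259 to 636, 531 and 729 (1.31 ± 0.15), which fell by 1.02 in vector cells, and Trib1, a pseudokinase known to promote C/EBPα degradation, from 52, 27 and 38 to 100, 130 and 123 (1.56 ± 0.30). The difference from vector cells was 1.54 for Trib1 and was not called without WT 0 h replicate 2 (1.32), WT 6 h replicate 2 (1.47), vector 0 h replicate 1 (1.51) or 3 (1.41) or vector 6 h replicate 2 (1.31). For Spi1 it was 0.55, and 0.46 and 0.49, no longer called, without replicate 2 or 3 of every group.

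Cebpa itself fell in WT cells from 580, 653 and 573 to 138, 139 and 132 (-2.12 ± 0.14), with no overlap. In vector cells it fell from 194, 198 and 179 to 86, 74 and 66 (-1.31), and WT cells were above vector cells at both times. Whether its probe set also reads the transcript of the fusion was not tested. The difference of -0.81 passed, but was not called with each array centred on its median (-0.65) or without replicate 1 or 2 of every group (-0.76 and -0.80). Of its relatives, Cebpg fell in both lines (-0.48 and -0.49). Cebpb lay at 911, 911 and 985 against 774, 887 and 905 and Cebpd at 107, 138 and 136 against 137, 154 and 139, with no call for either (adjusted p = 0.405 and 0.392).

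Of 29 tested stem and progenitor transcription factors, 11 fell (37.9%) and 5 rose (17.2%) in WT cells, where 19.0% and 13.5% of all genes did. Their median change was -0.24. In vector cells 2 fell and 3 rose, with a median of 0.03. The difference from vector cells passed for 7 of the 11 falls. Gata2, a factor of stem cells and of the mast cell and megakaryocyte lineages, fell from 1724, 2009 and 1791 to 1026, 1080 and 1044 (-0.81 ± 0.08), and vector cells had 1400 to 1604 throughout. Cbfa2t3, a corepressor in complexes with Tal1, fell from 847, 873 and 821 to 439, 492 and 466 (-0.86 ± 0.09). Tal1 (-0.72 ± 0.07) and Lyl1 (-0.54 ± 0.07), basic helix-loop-helix factors named here after their values were seen, fell as well and were not called in vector cells. Together with Zfpm1 and Runx3, described above, these are 6 of the 7. Quantile normalization left 11 of the 29 lower. With median centring, 7 of the 29 fell, and the differences of Gata2, Cbfa2t3, Tal1 and Lyl1 from vector cells were no longer called (-0.55, -0.79, -0.72 and -0.35). That of Lyl1 was also lost without replicate 2 of every group (-0.49).

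Ikzf1, a zinc finger factor of lymphoid and myeloid cells, rose by 0.56 ± 0.08 and by more than in vector cells, a difference not called without replicate 2 of every group (0.51), and Fli1 by 0.46 in WT and 0.47 in vector cells. Runx1 rose from 110, 132 and 132 to 147, 261 and 231 (0.72), with a difference from vector cells that was not called. Myb, a factor of proliferating progenitors, rose from 2134, 2111 and 2254 to 2994, 2508 and 2808 (0.35 ± 0.10; adjusted p = 0.00622). Without replicate 1 of every group this was 0.28 and not called, and it was not told apart from the 0.21 of vector cells. Further Myb probe sets changed by 0.34 and 0.78 in WT cells, with no call in limma (adjusted p = 0.226 and 0.0555). Gata1 fell from 64, 75 and 47 to 37, 32 and 34 (-0.78 ± 0.26), and the call was lost without any of 4 single WT arrays, at -0.63 to -0.77. Id1 and Id2, inhibitors of basic helix-loop-helix factors, were not called in WT cells (0.20 and 0.13), while Id2 fell by 0.75 in vector cells.

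Of 12 tested primary granule genes 2 rose (16.7%) and 1 fell, and of 15 secondary and tertiary granule genes 4 rose (26.7%) and 1 fell, where 13.5% of all genes rose. With median centring the same numbers rose and none fell. Prtn3, which encodes proteinase 3, rose from 710, 603 and 660 to 2473, 1836 and 1708 (1.59 ± 0.13) and fell in vector cells from 339 ± 41.5 (SD, n = 3) to 186 ± 15.2 (-0.86). Lcn2, the iron-siderophore-binding lipocalin of secondary granules, rose from 575, 608 and 598 to 1829, 1682 and 1687 (1.54 ± 0.14) and fell by 0.67 in vector cells. Slpi, a protease inhibitor, rose from 866, 884 and 869 to 2501, 1894 and 1821 (1.23 ± 0.14) and fell by 0.52 in vector cells. In each the arrays of both WT groups lay apart, and both lines moved in opposite directions. Mpo, myeloperoxidase, lay at 18, 14 and 17 and then at 32, 28 and 22, and was not called (0.64; adjusted p = 0.273). Serpinb1a, an inhibitor of neutrophil proteases, fell by 0.53, which was not called with median centring or without replicate 3 of every group (-0.46 in both).

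Of 36 tested genes of the phagocyte oxidase, integrins and receptors, 14 rose (38.9%) and 5 fell (13.9%) in WT cells, with a median of 0.40. Of all genes, 13.5% rose and 19.0% fell. In vector cells none rose and 8 fell, with a median of -0.15. For 13 of the 14 rises the difference from vector cells passed. Itgam, the CD11b integrin chain of neutrophils and monocytes, rose from 145, 125 and 128 to 476, 518 and 519 (1.91 ± 0.16), and fell in vector cells from 32, 30 and 39 to 19, 13 and 26 (-0.75). The following 5 were chosen after their values were seen. Fcgr2b and Fcgr3, receptors for the Fc part of IgG, rose from 286, 288 and 264 to 1114, 931 and 942 (1.82 ± 0.13) and from 317, 303 and 291 to 737, 712 and 682 (1.22 ± 0.10). Clec4e, a lectin that senses mycobacterial glycolipid, rose from 309, 410 and 372 to 1112, 1056 and 886 (1.48 ± 0.14). Ccr1 (1.54) and Cxcr4 (1.46), chemokine receptors, rose too, with differences of 1.28 and 1.40 from vector cells that were not called without replicate 1 (Ccr1, 1.37) or without replicate 2 or 3 of every group (Cxcr4, 1.41 and 1.16). Among the falls of this list, Pirb changed by -0.76 in WT cells and -0.94 in vector cells, and Ltb4r1, a leukotriene receptor, by -0.62 and -1.02. Csf3r, the G-CSF receptor, went from 60, 62 and 50 to 30, 29 and 27 (-0.93 ± 0.32), a call lost without any of 4 single WT arrays (-0.87 to -0.93). It changed by -0.75 in vector cells, with no call there and none on the difference (-0.18). Of 20 monocyte and macrophage genes, 2 rose (10.0%) and 5 fell (25.0%), or 1 (5.0%) and 2 (10.0%) with median centring. Cd68 was among the 5 (-0.90 in WT and -0.76 in vector cells).

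The pattern of C/EBP binding sites in DNA is an inverted repeat, and its core was searched in RefSeq promoters (GRCm38.p6) as TTGCNNAA, on both strands. Within the 250 bases before the start, it was found in 9.55% of all 27025 promoters and in 7.35% of the 10366 of tested genes. Genes that rose had it in 7.28%, genes that fell in 7.01% and genes not called in 7.47%. Among genes that rose past vector cells it stood in 28 of 275 promoters (10.2%), and in 12 of 76 where the rise was 2-fold or more (15.8%), a subset formed after the data were seen. The full palindrome TTGCGCAA stood in 0.232% of promoters of tested genes, in 0.277% of those of genes that rose, in 1 of the 275 and in 0 of the 76. Of the 108 named genes with a promoter, 14 had a match of TTGCNNAA. These are descriptions with no test, and a match is not a bound site. The matches of Fcgr3, Gadd45a and Slpi, which also rose past vector cells, are not shown, nor is any promoter outside that class. The following 4 promoters are examples from genes that rose past vector cells. They are shown to let the match, in capitals, be seen in its place. They lie at chr5:107725806-107726055 (Gfi1), chr2:32387740-32387989 (Lcn2) and chr6:123289872-123290121 (Clec4e) on the minus strand, and at chr5:30012864-30013113 (Il6) on the plus strand. The matches begin 143, 216, 66 and 128 bases before the start.
Gfi1: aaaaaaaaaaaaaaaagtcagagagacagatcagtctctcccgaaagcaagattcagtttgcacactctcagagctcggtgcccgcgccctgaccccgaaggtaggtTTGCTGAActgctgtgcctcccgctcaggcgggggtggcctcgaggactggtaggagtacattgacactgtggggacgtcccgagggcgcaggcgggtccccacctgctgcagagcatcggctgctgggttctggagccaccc
Lcn2: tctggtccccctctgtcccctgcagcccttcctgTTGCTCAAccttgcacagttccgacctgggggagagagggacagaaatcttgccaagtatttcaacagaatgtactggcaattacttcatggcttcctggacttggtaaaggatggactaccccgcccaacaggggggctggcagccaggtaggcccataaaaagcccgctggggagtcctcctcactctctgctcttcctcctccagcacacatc
Clec4e: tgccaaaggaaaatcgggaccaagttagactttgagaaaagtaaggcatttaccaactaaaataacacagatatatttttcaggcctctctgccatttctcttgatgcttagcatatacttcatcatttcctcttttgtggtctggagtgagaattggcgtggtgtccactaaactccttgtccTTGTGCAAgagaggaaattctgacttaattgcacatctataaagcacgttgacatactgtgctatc
Il6: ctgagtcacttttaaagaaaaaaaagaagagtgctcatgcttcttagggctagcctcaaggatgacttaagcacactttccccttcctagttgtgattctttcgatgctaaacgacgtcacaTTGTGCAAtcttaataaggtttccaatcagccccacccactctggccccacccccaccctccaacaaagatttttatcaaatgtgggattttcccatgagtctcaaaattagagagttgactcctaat

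Among 27 tested cytokine and growth factor receptors, 10 fell (37.0%) and 1 rose (3.7%), where 19.0% and 13.5% of all genes did. In vector cells 5 fell and 2 rose. The difference from vector cells passed for 2 of the 10 falls, Il2ra and Il4ra. With median centring 4 fell in WT cells (14.8%), against 9.8% of all genes, and with quantile normalization 10 fell. Il2ra, the alpha chain of the interleukin 2 receptor, fell from 967, 966 and 770 to 378, 479 and 428 (-1.07 ± 0.11), and rose in vector cells from 1154, 1131 and 1093 to 1563, 1705 and 1629 (0.53). Il4ra, a chain of the interleukin 4 receptor, fell from 595, 597 and 510 to 286, 310 and 291 (-0.93 ± 0.08) and had no call in vector cells. Ifnar2, of the interferon receptor, fell in both lines (-0.75 and -0.41). Of 32 chemokines and cytokines, 9 rose (28.1%) and 6 fell (18.8%), against 1 and 5 in vector cells. The share of falls was near that of all genes. With median centring 9 of the 32 rose and 2 fell in WT cells. Ccl6 rose from 185, 181 and 196 to 551, 566 and 591 (1.59 ± 0.24) with vector cells at 6 to 27, and its difference of 1.24 was not called without vector 0 h replicate 1 (0.93) or vector 6 h replicate 2 (0.94). Il6, chosen after its values were seen, rose from 67, 76 and 104 to 239, 241 and 254 (1.56 ± 0.27), with all WT arrays at both times below those of vector cells (266 to 303). Its difference was not called without replicate 2 of every group (1.48). Lif, a ligand of the IL-6 family, fell in both lines (-1.16 and -1.12). Il16 fell in WT cells (-0.96) and by more in vector cells (-1.52), a difference not called with median centring.

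The next lists hold genes of signalling pathways and immediate early genes. Whether they respond to BCR/ABL in these cells was not tested. The list of STAT5 and ERK feedback targets also holds genes of the signalling itself. These are Stat5a, Stat5b, Stat3, Jak2, Abl1, Bcr, Crkl, Gab2, Lyn, Ptpn6 and Inpp5d, so its counts are not of targets alone. Of its 35 tested genes, 14 fell and 2 rose in WT cells, where 19.0% and 13.5% of all genes did. In vector cells 5 fell and 1 rose. With median centring 9 fell and 2 rose in WT cells, and with quantile normalization 14 fell and 3 rose. Dusp4, a phosphatase of MAP kinases, fell from 917, 968 and 919 to 575, 453 and 517 (-0.86 ± 0.09), Stat5a from 271, 237 and 216 to 128, 127 and 134 (-0.88 ± 0.14), and Ptpn6, the phosphatase SHP-1, from 694, 721 and 775 to 365, 341 and 371 (-1.02 ± 0.07). All passed the difference, but Dusp4 and Ptpn6 lost it with median centring (-0.62 and -0.58), and Stat5a without replicate 1 or 2 of every group (-0.76 and -0.91). Of the 2 rises in that list, Phlda1 went from 277, 256 and 267 to 511, 581 and 605 (1.07 ± 0.10), with no call in vector cells. Of 36 immediate early genes, 12 fell in vector cells. In WT cells 12 fell (33.3%) and 5 rose (13.9%), the latter near the 13.5% of all genes. With quantile normalization 9 rose and 12 fell. Klf10 (-1.29) and Ppp1r15a (-1.10) fell in both lines. Gadd45a, a growth arrest and DNA damage gene, rose from 121, 132 and 131 to 236, 223 and 282 (0.93 ± 0.16) and fell by 0.59 in vector cells. Of 26 NF-κB genes, 13 fell and 5 rose; Tnfaip2 (-1.90 and -1.88) and Nfkbie, an inhibitor of NF-κB (-1.29 and -0.77), fell in both lines, while Cd44, an adhesion receptor, rose by 1.19 ± 0.12 in WT cells.

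Genes of growth rose in both lines. Of 46 genes of the MYC network and ribosome biogenesis, 35 rose (76.1%) and 2 fell (4.3%) in WT cells (median 0.72). In vector cells 31 rose and 2 fell (median 0.49), and 31 members were in the shared class. Of all genes, 13.5% rose and 19.0% fell in WT cells. Myc rose from 1119, 1198 and 1243 to 1714, 1974 and 2120 (0.70 ± 0.09) and by 0.29 in vector cells. Utp20, Rrp12 and Ddx21, factors of ribosomal RNA processing, rose by 1.44, 1.30 and 1.28 in WT and by 1.21, 1.47 and 1.20 in vector cells. Bop1 (1.16 and 0.85) and Dkc1 (1.07 and 0.88), named after their values were seen, did so too. Of 25 genes of nucleotide, folate and polyamine synthesis, 16 rose (64.0%) and 3 fell (12.0%). Among the rises were Srm, spermidine synthase (1.23 and 1.04 in WT and vector cells), Cad (1.05 and 0.80) and Ctps (1.03 and 0.53). Of 25 tested cytosolic and mitochondrial chaperones, 7 rose and 2 fell, against 8 and 2 in vector cells, and 4 rose with median centring. Of these, Hsph1 (0.98 and 0.92) and Hspd1 (0.87 and 0.75) rose in both lines. Snhg3 (1.71 and 1.32), Ndufaf4 (1.59 and 1.39) and Aven (1.44 and 1.13) were further shared rises.

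Genes of the ATF4 pathway, which responds to lack of amino acids and to stress, fell together in both lines. Of 35 tested, 23 fell (65.7%) and none rose in WT cells (median -0.71), against 28 and none in vector cells (median -0.72). Atf4 fell from 2838, 3023 and 2753 to 1085, 1025 and 967 (-1.48 ± 0.07), and its change in vector cells was -1.11. Asns, asparagine synthetase, fell as well (-1.20 in WT and -1.12 in vector cells), as did Ddit3, which encodes CHOP (-1.89 and -1.41). These 3 were chosen after their values were seen. The difference of Atf4 from vector cells, -0.37, was not called without WT 0 h replicate 2 (-0.33), WT 6 h replicate 3 (-0.33), vector 0 h replicate 2 (-0.36) or vector 6 h replicate 2 (-0.35). That call was also lost with median centring (-0.22), with quantile normalization (-0.29) and without replicate 2 or 3 of every group (-0.3 and -0.39). Slc6a9, a glycine transporter, changed by -1.92 and -1.45, and the mitochondrial folate enzymes Mthfd2 (-1.57 and -1.55) and Shmt2 (-0.70 and -0.86) fell as well. Of 27 endoplasmic reticulum chaperone and unfolded protein response genes, 6 rose (22.2%) and 5 fell (18.5%), against 1 and 6 in vector cells. The share of falls was near the 19.0% of all genes, of which 13.5% rose. With median centring 5 of the 27 rose and 1 fell in WT cells. Herpud1, of endoplasmic reticulum protein degradation, fell in both lines (-1.73 and -1.19), whereas the sensor Ern1 rose by 0.47 in WT cells and fell by 0.71 in vector cells.

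Of 28 tested genes of glycolysis and HIF targets, 5 rose (17.9%) and 7 fell (25.0%) in WT cells, near the 13.5% and 19.0% of all genes, and in vector cells none rose and 16 fell. The difference passed for 4 of the 5 rises and for none of the falls, and 5 of the falls were shared. With median centring 5 rose and 3 fell. Egln3, an oxygen-sensing prolyl hydroxylase, rose from 913, 949 and 1022 to 2457, 2649 and 2646 (1.42 ± 0.09) and fell in vector cells from 1904, 2158 and 2094 to 1014, 964 and 930 (-1.08). Hk2, hexokinase, rose from 417, 438 and 357 to 1045, 1019 and 1076 (1.37 ± 0.09) against -0.40 in vector cells, and Slc2a1, the glucose transporter GLUT1, from 314, 334 and 321 to 659, 706 and 743 (1.11 ± 0.09) against -0.63 in vector cells. These 3 started lower in WT than in vector cells and ended higher. Pfkm fell in both lines (-0.91 and -0.96).

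Of 32 sterol and fatty acid genes, 18 fell (56.2%) and 2 rose (6.2%), where 19.0% and 13.5% of all genes did. In vector cells 15 fell, while in WT cells 9 fell with median centring (28.1%) and 18 with quantile normalization. Abcg1, a cholesterol exporter, fell from 970, 978 and 1103 to 407, 432 and 484 (-1.20 ± 0.12) in WT cells alone. Msmo1, of sterol synthesis, fell by 1.16 without a call on the difference, and Acaca, the first enzyme of fatty acid synthesis, rose by 0.92 ± 0.12. Of 32 interferon response genes, 18 fell (56.2%) and 3 rose (9.4%), against 10 and 1 in vector cells, and with median centring 17 fell (53.1%) and 0 rose. Of the falls, Igtp (-1.72 and -0.96) and Ddx58 (-1.12 and -0.90) fell in both lines. Of 16 genes of lipid mediators and annexins, 1 rose (6.2%) and 5 fell (31.2%), against 0 and 3 in vector cells. In WT cells 3 fell with median centring (18.8%) and 6 with quantile normalization. Anxa6 (-1.46 ± 0.10) and Ltc4s, leukotriene C4 synthase (-0.79 ± 0.09), fell by more in WT cells, but both differences were lost with median centring (-0.75 and -0.57) and that of Ltc4s also without replicate 2 of every group (-0.58).

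Genes of the cell cycle moved in both directions. Of 46 DNA replication genes, 12 rose (26.1%) and 10 fell (21.7%) in WT cells, against 11 and 1 in vector cells. Of all genes, 13.5% rose and 19.0% fell in WT cells. With median centring 4 rose and 4 fell (8.7% each), near the 9.5% and 9.8% of all genes. Quantile normalization gave 12 higher and 12 lower. Without WT 6 h replicate 1, 7 rose and 8 fell. Orc2, of the origin recognition complex, rose in both lines (0.78 and 0.54). Tk1, thymidine kinase, fell from 551, 481 and 553 to 281, 247 and 223 (-1.07 ± 0.08), with -0.56 in vector cells. Of 38 G2/M genes, 19 fell and 1 rose in WT cells and 11 fell in vector cells. In WT cells 5 fell with median centring and 18 with quantile normalization. Of 30 CDKs, D cyclins and CDK inhibitors, 10 fell (33.3%) and 5 rose (16.7%), or 5 (16.7%) and 3 (10.0%) with median centring. Quantile normalization gave 11 lower and 6 higher. Cdkn2d, an inhibitor of CDK4 and CDK6 (-1.12 ± 0.07), and Tfdp2, a partner of E2F (-1.03), fell in both lines. Cdk2, a target of C/EBPα at the protein level, went from 285 ± 12.1 (SD, n = 3) to 204 ± 28.5 (-0.48 ± 0.09), with no overlap, a call lost with median centring (-0.42). Cdk4 went from 1723, 1768 and 1962 to 1520, 1541 and 1565 (-0.23 ± 0.08), a call lost without WT 0 h replicate 3 (-0.18), WT 6 h replicate 1 (-0.22), 2 (-0.23) or 3 (-0.25). It was also lost with median centring (-0.17), with no filter and with only the arrays compared in the fit (-0.23 in both). Further Cdk4 probe sets changed by -0.13 and -0.09, with no call. For Cdkn1a, which encodes the CDK inhibitor p21, the probe set used was not called (-0.26; adjusted p = 0.0603), but a second one went from a mean of 1516 to 1100 and was called lower in limma (-0.47 ± 0.13; adjusted p = 0.00392). Among 25 BCL2 family and apoptosis genes 11 fell and 2 rose, and 4 fell with median centring and 9 with quantile normalization. Bbc3, the BH3-only protein PUMA, fell in both lines (-0.98 and -0.73), and Bcl2l13 rose by 0.64 ± 0.10 in WT cells.

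**Figure D3:**
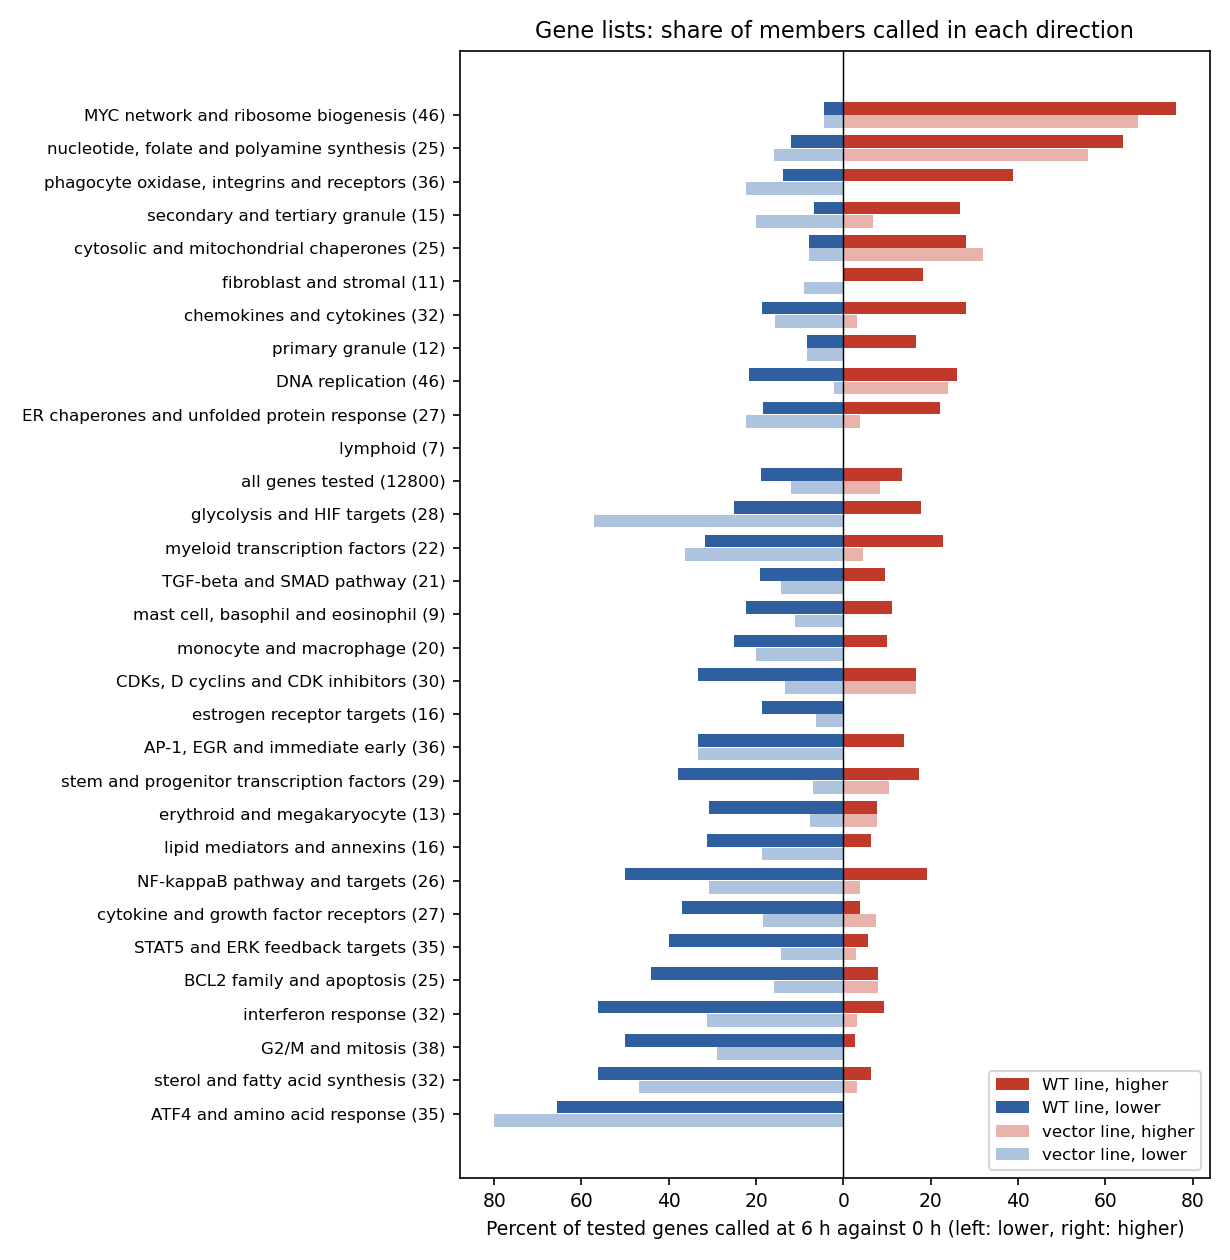
Percent of tested members (number in brackets) of 30 gene lists, and of all 12800 genes, called higher (right) or lower (left) at 6 h in WT cells (dark bars) and in vector cells (pale bars). Ribosome biogenesis and ATF4 genes moved alike in both lines, while phagocyte receptor genes rose in WT cells (14 of 36) and in vector cells did not (none).

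The WT line was also sampled at 9 and 12 h, and those changes share the 0 h arrays with the change at 6 h. Side by side, Igsf6 changed by 4.65, 5.14 and 5.22 and Gpr84 by 3.37, 3.45 and 3.43 at 6, 9 and 12 h. Clec4d changed by 2.28 at 6 h but by -0.26 at both later times, with 435, 493 and 493 at 6 h against 72 to 86 at 9 and 12 h. Mpo changed by 0.64, 3.08 and 4.33, and reached 366, 388 and 401 at 12 h. Il2ra lay at 131 to 150 at 9 h and 96 to 102 at 12 h, below 6 h, whereas Gata2 stayed at 893 to 1032. Tk1 was back at 558 to 648 at 9 h. Slc2a1 was at 659 to 743 at 6 h and at 327 to 421 at 9 h.

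**Figure D4:**
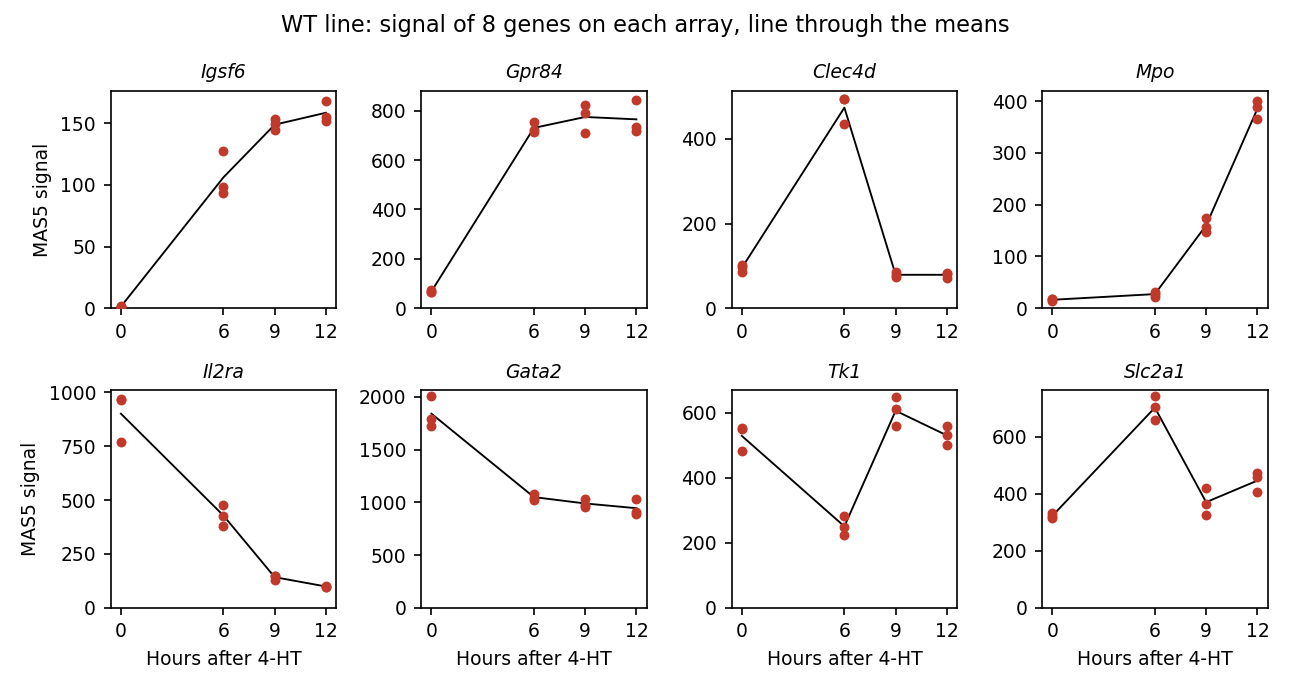
MAS5 signal (vertical axis, from 0, a scale of its own for each gene) of 8 genes on the 3 WT arrays at 0, 6, 9 and 12 h after 4-HT (horizontal axis), with a line through the means. Clec4d, Tk1 and Slc2a1 departed from 0 h at 6 h and came back toward it at 9 h, Mpo was highest at 12 h, and Gpr84 stayed at its 6 h level.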

How the data were processed

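Arrays of 2 lines at 2 times were compared, 3 per group, within a fit of all 48. The deposited table holds signal intensities that the authors computed with MAS5, according to the submitters' processing notes, as whole numbers on a linear scale. Its version is not given in the sources used here. Of 45101 probe sets, 64 controls were left out, and 27167 of 45037 passed a filter (a group mean of log2(signal + 3) over 4.09, the median of all values, a signal of 14, in at least 1 of 16 groups). Of the 45037, 34945 had 1 gene symbol, 932 several and 9160 none in the platform annotation. Each gene was represented by its probe set with the highest mean. Changes were tested with limma 3.58.1 (R 4.3.3; lmFit, eBayes with a mean-variance trend, 16 group means, 32 residual degrees of freedom) and adjusted by Benjamini-Hochberg over all probe sets tested, with a threshold of 0.05. Exact permutation of 3 arrays against 3 was not used, since it cannot reach that threshold. The fit was tested on simulated data. A WT call was past vector when the difference of both changes passed in its direction, and shared when vector was called the same way and the difference was not. The members and lists were chosen with earlier results of these data known. Genes were named by rule: the 15 largest rises and falls of WT calls with a signal of 50 or more, the 5 largest shared ones, up to 3 per list and direction, and genes always named; 174 genes met it and part of them are described, and 13 more were chosen after their values were seen. The 30 lists had 930 entries, of which 772 were tested. The 2 not described in the report were the TGF-β pathway and estrogen receptor targets. They had 2 higher (9.5%) and 4 lower (19.0%) of 21, and 0 higher and 3 lower (18.8%) of 16. Called named genes had 139 further probe sets, of which 79 made the same call, 60 none and 0 the opposite. Promoter sequences are from RefSeq (GRCm38.p6). Alternatives were the added constant, the filter, the scaling, the arrays in the fit, a replicate block, array weights, the variance trend and arrays left out.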

Additional observations from a re-analysis of the deposited data

Results flagged for a closer look

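Of the 128 genes named, 66 had a change in WT cells that differed from the change in vector cells by the test of the difference itself. The values in brackets are the WT change minus the vector change on the log2 scale.

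In 11 genes the lines moved in opposite directions, both past the threshold. In 10 of them WT cells rose and vector cells fell: Itgam (2.65), Egln3 (2.50), Prtn3 (2.44), Nfil3 (2.33), Lcn2 (2.21), Hk2 (1.77), Slpi (1.75), Slc2a1 (1.74), Gadd45a (1.52) and Ern1 (1.19). The other was Il2ra (-1.60), which fell in WT cells and rose in vector cells.

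In 39 genes the change passed in WT cells alone. Those with a larger change in WT cells were Igsf6 (4.75), Gpr84 (3.51), Il4 (2.99), Anxa3 (2.64), Hp (2.34), Irak3 (2.25), Alas1 (2.12), Fcgr2b (1.99), Tnfrsf14 (1.91), Clec4e (1.63), Trib1 (1.54), Il6 (1.50), Cd44 (1.47), Cxcr4 (1.40), Ccr1 (1.28), Ccl6 (1.24), Fcgr3 (1.19), Gfi1 (1.09), Phlda1 (0.96), Bcl2l13 (0.88), Acaca (0.86), Edem1 (0.67), Ikzf1 (0.62) and Spi1 (0.55). Those with a lower one were Bcl2l14 (-3.21), Runx3 (-2.48), Zfpm1 (-2.31), Fhod1 (-2.14), Zfp385a (-1.89), Abcg1 (-1.40), Cbfa2t3 (-0.94), Stat5a (-0.89), Tal1 (-0.87), Il4ra (-0.86), Dusp4 (-0.78), Serpinb1a (-0.78), Ltc4s (-0.72), Gata2 (-0.70) and Lyl1 (-0.51).

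In 15 genes both lines moved the same way by different amounts. The difference was above 0 for Tfec (2.12), Clec4d (1.63), BC035044 (1.49) and Il16 (0.56); Il16 fell in both lines, by less in WT cells. It was below 0 for Capn5 (-1.52), Pdzk1ip1 (-1.36), Pck2 (-1.06), Anxa6 (-0.91), Cebpa (-0.81), Pik3ip1 (-0.81), Ptpn6 (-0.73), Cdkn2d (-0.71), Herpud1 (-0.54), Tk1 (-0.51) and Atf4 (-0.37). In 1 gene, Id2 (0.88), the change passed in vector cells alone. Under other settings the differences of Cdkn2d, Herpud1 and Tk1 were not called with median centring (-0.55, -0.39 and -0.36), nor those of Id2 and Edem1 without replicate 2 of every group (0.67 and 0.62).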

How the results depend on the processing

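No called change of a named gene reversed under any alternative. Of 118 called changes in WT cells, 6 lost the call under at least 1 alternative, as did 30 of the 66 called differences from vector cells; the causes were not tested. Counts that follow are probe sets, higher then lower. With 12 or 32 added in place of 3, WT changes of 2-fold or more were 267 and 515, or 159 and 254, and with a signal of at least 50 they were 295 and 599, since the added constant and the filter act on low signals. With median centring, WT calls lower were 2072, vector calls 363 and 1528, differences 370 and 95, WT calls past vector 290 and 91, and shared calls 322 and 855. With arrays left out, WT calls ranged from 2099 to 2874 and from 2886 to 3732, 2-fold ones from 406 to 482 and from 785 to 967, vector calls from 918 to 1482 and from 1330 to 1980, and differences from 330 to 642 and from 243 to 593. Calls past vector and shared calls were counted only with a replicate number left out of every group. Calls past vector then ranged from 259 to 390 and from 235 to 352, and shared calls from 687 to 1014 and from 861 to 1166. The median of a list turned sign with median centring for the monocyte, glycolysis, TGF-β, mast cell and fibroblast lists and all genes, with quantile normalization for endoplasmic reticulum chaperones, TGF-β and mast cell lists, and without WT 6 h replicate 1 for endoplasmic reticulum chaperones and TGF-β. Same-numbered arrays at 0 and 6 h did not deviate together (correlations of 0.0055 to 0.0624 in the WT line, -0.0758 to 0.0277 in the vector line), and a replicate block gave 3136 and 4088 WT calls against 3081 and 4018. The number of arrays limits the precision, and changes from signals near the floor depend on the added constant.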
